A study of Mus musculus with 2 samples.

Results

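The replication-dependent histone genes are the clustered genes that supply the bulk of histone protein during S phase. The set described here was every protein-coding gene of GENCODE M21 on mm10 whose symbol begins with Hist1h, Hist2h, Hist3h or Hist4h, which gave 67 of 21938 protein-coding genes on the nuclear chromosomes. SRCAP was mapped in SYAT cells, CGR8-derived mouse embryonic stem cells in which both Srcap alleles carry YPet and an auxin-inducible degron at the 3′ end and which stably express OsTir1, the plant auxin receptor, from an EF1a promoter. The line stems from 1 homozygous clone with the tag, so the replicates share it, and it was kept in serum with LIF before the experiment. Both libraries came from the control condition, in which the medium held auxinole, an inhibitor of the auxin receptor, against basal loss of SRCAP. Its concentration is 200 nM per the labels, while the study's methods give the same figure in micromolar. They are 2 replicates of 1 group, so no comparison between conditions was made. YPet was detected with an anti-GFP antibody by CUT&Tag, which cuts and tags DNA near the antibody with a tethered transposase, on 200000 cells per sample. SRCAP is the catalytic subunit of a remodeling complex that places the variant H2A.Z in nucleosomes.

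A nucleosome holds H2A, H2B, H3 and H4, and the linker histone H1 binds outside it. Replication-dependent genes for these proteins sit in a few dense clusters, many H2A and H2B genes are transcribed away from each other out of a shared stretch of DNA, and their transcripts end in a stem-loop in place of a poly(A) tail. NPAT, the coactivator of these clusters, marks the histone locus body in which they are transcribed. The variant H2A.Z is encoded by genes outside the clusters, whose transcripts are polyadenylated.

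The set held 6 H1, 18 H2A, 18 H2B, 12 H3 and 13 H4 genes, 54 of them in the Hist1 locus, 10 in Hist2, 2 in Hist3 and 1 in Hist4. Neighbours more than 200 kb apart were placed in separate blocks, which gave 6 blocks. Block 1 was the Hist2 locus on chromosome 3 with 10 genes over 49.9 kb, block 2 was Hist4h4 on chromosome 6, and block 3 held Hist3h2ba and Hist3h2a on chromosome 11. On chromosome 13, block 4 held 18 Hist1 genes over 118 kb, block 5 held 5 genes over 7.65 kb, and block 6 held 31 genes over 403 kb. A gene was counted as bound in a replicate if a deposited peak overlapped, by at least 1 bp, its promoter window, which ran from 1000 bp before to 500 bp after any annotated transcription start site (TSS). The authors called 6158 peaks in replicate 1 and 12958 in replicate 2. Read numbers are not in the lists, so the depth behind a call is unknown, and scores are set side by side within a list only. The score is the peak caller's value, a whole number that grows with the confidence of the call and starts at 13 in both lists.

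The DNA between the start sites of H2A and H2B genes is shown first, because 12 of the 13 divergent pairs among the members join an H2A to an H2B gene and these pairs carry 4 of the 7 calls of replicate 1 and 9 of the 29 calls of replicate 2. Each sequence is the RefSeq GRCm38 assembly (the mm10 build), 5′ to 3′ on the plus strand, from the base after the minus-strand start site to the base before the plus-strand start site. Capitals mark exact matches, on either strand, of CCAAT, which is the box read by NF-Y, of the core promoter motif TATAAA, or of ATTTGCAT, the octamer read by OCT1. The first pair was bound in both replicates, the second in replicate 2, and the last pairs in neither. At the first pair the peak of replicate 2 covers the printed stretch, while that of replicate 1 lies outside it, within Hist1h2bc.
Hist1h2ac–Hist1h2bc, chr13:23683949-23684198: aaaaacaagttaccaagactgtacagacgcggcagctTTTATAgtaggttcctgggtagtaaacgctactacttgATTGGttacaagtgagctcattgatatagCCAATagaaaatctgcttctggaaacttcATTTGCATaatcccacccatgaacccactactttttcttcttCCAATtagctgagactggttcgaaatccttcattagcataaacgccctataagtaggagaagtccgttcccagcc
Hist1h2ak–Hist1h2bn, chr13:21753828-21754122: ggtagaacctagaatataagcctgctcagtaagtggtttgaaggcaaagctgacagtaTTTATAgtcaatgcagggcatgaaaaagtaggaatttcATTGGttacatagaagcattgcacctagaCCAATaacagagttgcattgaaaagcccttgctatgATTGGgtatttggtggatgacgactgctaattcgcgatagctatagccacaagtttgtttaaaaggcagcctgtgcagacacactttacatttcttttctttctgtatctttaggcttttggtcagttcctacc
Hist1h2ae–Hist1h2bg, chr13:23571221-23571395: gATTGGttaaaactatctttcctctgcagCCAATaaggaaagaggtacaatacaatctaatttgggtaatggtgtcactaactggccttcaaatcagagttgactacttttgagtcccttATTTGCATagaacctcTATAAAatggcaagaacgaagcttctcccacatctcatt
Hist1h2ap–Hist1h2br, chr13:21833508-21833742: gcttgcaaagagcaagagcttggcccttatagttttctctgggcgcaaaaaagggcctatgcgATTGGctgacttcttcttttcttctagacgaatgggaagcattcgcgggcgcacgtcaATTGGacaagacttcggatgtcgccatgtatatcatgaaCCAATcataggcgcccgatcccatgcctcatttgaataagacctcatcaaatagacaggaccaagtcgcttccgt

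CCAAT stood in all 4 stretches, TATAAA in 3 and the octamer in 2, namely at the pair bound in both replicates and at Hist1h2ae–Hist1h2bg, which had no peak. The last stretch differs in another way: none of the 37-base words of its promoter windows occurs once in the genome.

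For H3 and H4, the member with the best worst rank by score over both lists is shown beside the nearest member of the same type without a peak. These are the 250 bases before the start site on the gene's own strand, with the same marks and with GTCCGC, a core of the histone H4 promoter element that HINFP reads, and AAACACA, the H1 box.
Hist1h3a, bound in both replicates, minus strand, chr13:23762387-23762636: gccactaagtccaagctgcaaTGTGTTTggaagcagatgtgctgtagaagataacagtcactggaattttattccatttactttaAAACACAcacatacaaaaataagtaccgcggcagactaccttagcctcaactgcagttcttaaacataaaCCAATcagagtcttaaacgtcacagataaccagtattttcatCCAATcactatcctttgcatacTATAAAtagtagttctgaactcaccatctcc
Hist1h3b, no peak, plus strand, chr13:23752017-23752266: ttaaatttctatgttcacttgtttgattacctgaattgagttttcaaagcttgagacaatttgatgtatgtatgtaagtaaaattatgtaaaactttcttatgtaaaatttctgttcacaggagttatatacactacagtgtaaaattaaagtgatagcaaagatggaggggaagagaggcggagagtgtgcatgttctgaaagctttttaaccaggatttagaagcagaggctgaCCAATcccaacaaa
Hist1h4h, bound in both replicates, plus strand, chr13:23530800-23531049: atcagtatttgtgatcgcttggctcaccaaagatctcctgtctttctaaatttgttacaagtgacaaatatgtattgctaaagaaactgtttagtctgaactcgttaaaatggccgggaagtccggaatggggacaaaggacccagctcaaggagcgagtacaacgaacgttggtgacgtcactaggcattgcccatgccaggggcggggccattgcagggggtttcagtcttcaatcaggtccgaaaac
Hist1h4f, no peak, minus strand, chr13:23551649-23551898: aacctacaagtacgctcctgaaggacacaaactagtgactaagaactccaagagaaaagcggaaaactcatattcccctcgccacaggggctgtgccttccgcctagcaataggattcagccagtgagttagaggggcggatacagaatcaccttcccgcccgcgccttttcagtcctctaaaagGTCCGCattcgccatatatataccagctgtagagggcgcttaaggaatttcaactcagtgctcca

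No peak touches the printed stretch of Hist1h3a or of Hist1h4h, whose peaks lie downstream of the start site, so these stretches are not called DNA. Hist1h3a carried CCAAT, the core promoter motif and the H1 box, and Hist1h3b carried CCAAT. Hist1h4h, bound in both lists, held no exact match of the 5 motifs in this stretch, and Hist1h4f held GTCCGC. Near its start site the Hist1h4h stretch reads gtccga, which departs from GTCCGC in the last base alone. A missing exact match thus does not show that the H4 element is absent. The 5′ part of the Hist1h4h stretch overlaps an exon annotated to Gm11335.

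Replicate 1 had a promoter peak at 7 of the 67 members (10.4%, 95% Wilson interval 5.15 to 20.0), against 15.7% of all protein-coding genes. Replicate 2 had a peak at 29 members (43.3%, 32.1 to 55.2), against 30.4%. In both replicates 5 members were bound (7.46%, 3.23 to 16.3), against 12.0%. The share bound was thus below that of all genes in replicate 1, above it in replicate 2, and below it in the overlap. Over the replicates the mean share was 26.9% ± 23.2 (SD, n = 2) for the members and 23.0% ± 10.4 for all protein-coding genes. Both sets were read from the same 2 lists of unequal length, so these spreads do not measure the error of the difference between the sets. That difference changed sign between the replicates. No test was made over members, which share peaks and are not replicates. The intervals cover counting error only and take each gene as separate, so shared peaks make them too narrow. The study's reporting form states, for its experiments in general, that replicates were cultured and treated separately.

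Of the 7 members bound in replicate 1, 71.4% were bound in replicate 2, beside 76.7% of all protein-coding genes bound in replicate 1. Of the 29 bound in replicate 2, 17.2% were bound in replicate 1, beside 39.7% of all genes. A further 2 members had a peak in replicate 1 alone, 24 in replicate 2 alone, and 36 in neither. The calls rested on few peaks: 4 in replicate 1, of which 3 served 2 members each, and 20 in replicate 2, of which 9 did. Of those peaks, 3 overlapped between the lists, which is 3 of 4 and 3 of 20, beside 71.2% and 35.4% of all peaks at protein-coding promoters in these lists.

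**Figure D1:**
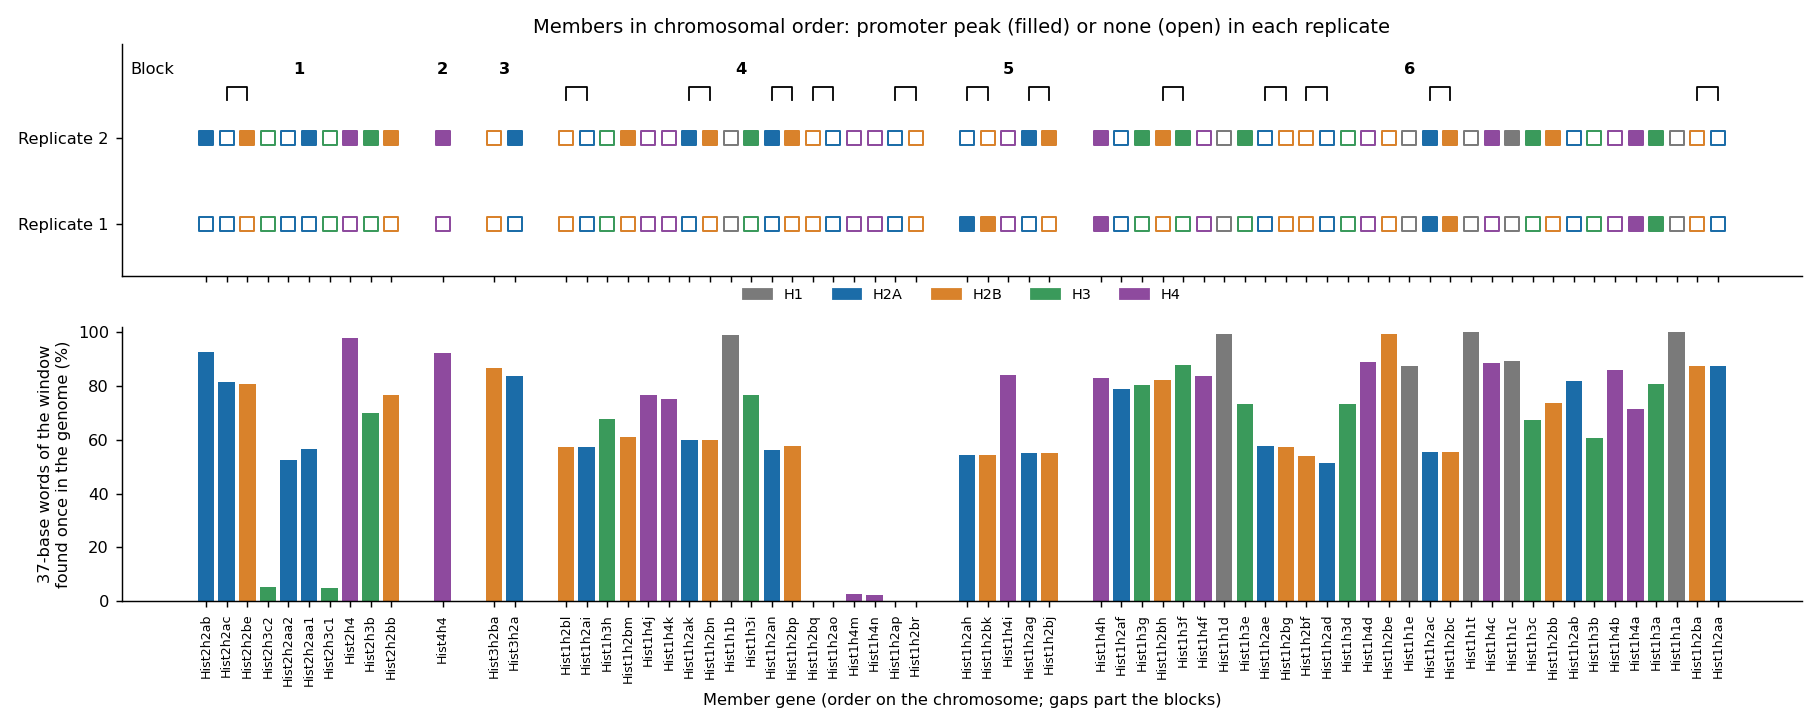
Each square in the upper panel is a member gene in chromosomal order, filled if it had a promoter peak in that replicate, with brackets over divergent pairs and numbers over the 6 blocks; colours give the histone type. Bars in the lower panel give the percentage of 37-base words of the promoter window that occur once in the genome. The 7 filled squares of replicate 1 lie in blocks 5 and 6, while those of replicate 2 lie in all 6 blocks, and the run of 6 genes with bars at or near 0 in block 4 has no filled square.

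The 5 members bound in both replicates lay at 3 places, all in block 6. Hist1h4h, which encodes H4, had a peak at chr13:23531337-23531720 with a score of 42 in replicate 1 and at chr13:23531137-23531445 with a score of 38 in replicate 2. Both peaks lay downstream of the start site, with midpoints at +478 and +241 bp, and the bases they share fall in the coding sequence and the end of the transcript. The coding bases of that overlap, on the plus strand at chr13:23531337-23531423, show where both lists placed the signal.
Hist1h4h, shared coding stretch: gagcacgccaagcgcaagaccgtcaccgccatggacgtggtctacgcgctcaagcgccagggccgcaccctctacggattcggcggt

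Hist1h2ac and Hist1h2bc, an H2A and an H2B gene whose start sites lie 251 bp apart, shared a peak in each list. In replicate 1 it was 321 bp wide with a score of 35 and lay within Hist1h2bc, beginning 150 bp downstream of its start site. In replicate 2 it was 1261 bp wide with a score of 78, at chr13:23683471-23684731, and spanned both start sites. The peak of replicate 2 contained the whole of the narrower peak of replicate 1, whose bases inside the Hist1h2bc coding sequence (chr13:23684349-23684609, plus strand) are as follows.
Hist1h2bc, shared coding stretch: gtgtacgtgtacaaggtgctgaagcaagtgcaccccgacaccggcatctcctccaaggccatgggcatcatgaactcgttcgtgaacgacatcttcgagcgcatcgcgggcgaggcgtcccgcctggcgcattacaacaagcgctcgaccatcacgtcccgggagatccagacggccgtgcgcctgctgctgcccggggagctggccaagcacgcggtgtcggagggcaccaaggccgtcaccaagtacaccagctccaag

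Hist1h4a and Hist1h3a, an H4 and an H3 gene on the minus strand, were called from the same peak in each list, at chr13:23761710-23762027 with a score of 23 in replicate 1 and at chr13:23761688-23761943 with a score of 29 in replicate 2. It lies upstream of Hist1h4a, with midpoints at -638 and -585 bp from its start site, and over the 3′ end of Hist1h3a, with midpoints at +518 and +571 bp from its start site. Neither start site was inside a peak. Of the stretch shared by the lists, the part between the genes (chr13:23761710-23761852, plus strand) is given with its TATAAA match in capitals.
Between Hist1h4a and Hist1h3a: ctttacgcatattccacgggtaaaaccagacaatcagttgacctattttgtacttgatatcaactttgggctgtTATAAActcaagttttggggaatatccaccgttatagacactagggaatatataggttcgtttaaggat

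At none of the 5 members did the peaks of both replicates contain the start site. The members called in replicate 1 alone were Hist1h2ah and Hist1h2bk, an H2A–H2B pair in block 5 whose start sites lie 302 bp apart. Their peak, at chr13:22035730-22035964, had a score of 23 and lay over the start site of Hist1h2bk. It had no counterpart in replicate 2, where the nearest peak lay 6388 bp outside the window of Hist1h2ah.

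Median scores of the member peaks were below those of other promoter peaks in the same list. In replicate 1 the 4 scores ran from 23 to 42 with a median of 29, against a median of 35 for all 3090 peaks at protein-coding promoters. In replicate 2 the 20 scores ran from 20 to 95 with a median of 38, against 43 for 6211 peaks. A score of at least 50 was reached by 0 of 4 and by 5 of 20 member peaks (25.0%), beside 26.3% and 40.3% of the peaks at all protein-coding promoters. The 5 peaks were those at Hist4h4 (95), at Hist1h2ac and Hist1h2bc (78), at Hist2h2ab and Hist2h2be (71), at Hist1h1c (53) and at Hist1h2ak and Hist1h2bn (53). Hist4h4 encodes H4 away from the large clusters, and its peak, 907 bp wide at chr6:136803594-136804500, contained its start site in replicate 2, while the nearest peak of replicate 1 lay 22648 bp outside its window. Median widths at members were 320 and 474 bp, beside 354 and 409 bp at all protein-coding promoters.

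By histone type, the order in replicate 2 with the full window was H3, H2B, H2A, H4 and H1, and this order depended on the rule. H3 genes were bound in 7 of 12 cases (58.3%, 32.0 to 80.7) and H2B genes in 9 of 18 (50.0%, 29.0 to 71.0). H2A genes were bound in 7 of 18 (38.9%, 20.3 to 61.4) and H4 genes in 5 of 13 (38.5%, 17.7 to 64.5). H1 genes were bound in 1 of 6 (16.7%, 3.01 to 56.4), and the intervals of all neighbours in this order overlapped. Over all protein-coding genes the share was 30.4% in replicate 2 and 15.7% in replicate 1. When the peak had to contain a start site, H2B stood at 33.3%, H2A at 27.8%, H3 at 8.33%, H4 at 7.69% and H1 at 0%. With 250 bp on both sides, H2B stood at 44.4%, H2A at 38.9%, H4 at 30.8%, H3 at 25.0% and H1 at 0%, so H3 stood behind H2A and H2B under both rules. With a score of at least 50, no H3 gene was bound, H4 stood at 7.69%, and H1, H2A and H2B stood level at 16.7%. With lists of equal length, H3 stood at 25.0%, H4 at 23.1%, H2A and H2B at 22.2% and H1 at 16.7%. Replicate 1 gave another order, with H4 first at 2 of 13 (15.4%), H2A and H2B at 2 of 18 each (11.1%), H3 at 1 of 12 (8.33%) and H1 at 0 of 6, which allows a share of up to 39.0%.

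**Figure D2:**
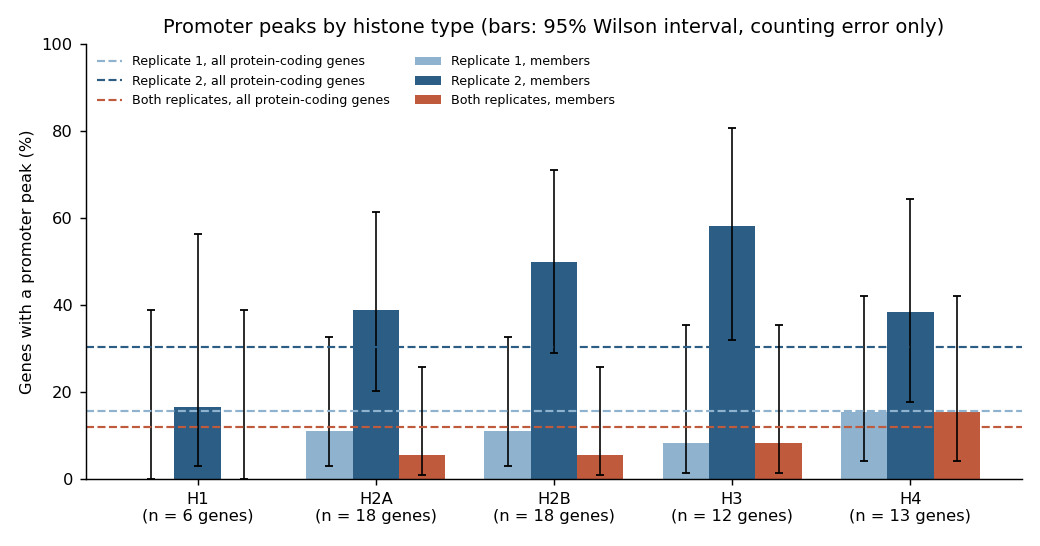
Bars give the percentage of genes of each histone type that had a promoter peak in each replicate and in both, with 95% Wilson intervals as error bars; dashed lines give the same percentages for all protein-coding genes. With this window H3 and H2B have the highest bars in replicate 2, at 58.3% and 50.0%, but H3 is at 8.33% when the peak must contain a start site, and every interval is wide.

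Among the linker histone genes, Hist1h1c was the member called, through a peak in replicate 2 with a score of 53 that began 310 bp downstream of the start site and covered 367 coding bases. Hist1h1a lay 639 bp outside a peak of replicate 1 and 723 bp outside a peak of replicate 2, and both were the peaks counted for Hist1h4a and Hist1h3a. Hist1h1d had no call, but its annotated start site lies 1828 bp before the start codon. A peak of replicate 2 with a score of 66, at chr13:23555432-23556056, lay 342 bp downstream of that start codon, and no peak of replicate 1 did. An H2B gene, Hist1h2be, showed the same with a larger offset: its representative start site is annotated 35138 bp before its start codon, within the transcript of Hist1h1e. A peak of replicate 2 with a score of 42, at chr13:23585496-23585905, lay over its coding sequence, 51 bp downstream of the start codon. With the window placed at the start codon, a choice made after these values were seen, 31 members were bound in replicate 2 (46.3%), with Hist1h1d, Hist1h2be and Hist2h3c2 gained and Hist1h3f lost, and the calls of replicate 1 did not change. With the window at the first start codon of each gene, 10.1% of all protein-coding genes were bound in replicate 1 and 20.0% in replicate 2. With the window at any TSS these shares were 15.7% and 30.4%. Over all members the start site lay a median of 32 bp from the start codon, and these are the 2 genes with more than 1000 bp.

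The testis-type histone genes Hist1h1t, Hist1h2ba and Hist1h2aa, singled out after their values were seen, had no peak in either list. Their windows are largely unique in sequence (100%, 87.4% and 87.4% of 37-base words). Hist1h2ba and Hist1h2aa are a divergent pair. Of all members 53.7%, and of all protein-coding genes 66.0%, had no peak in either list, so these testis-type genes do not stand out. Of the other members without a call in replicate 2, Hist2h3c2 missed the window by 12 bp, Hist2h2ac by 190 bp and Hist2h3c1 by 293 bp, and 6 of the 38 uncalled members had a peak within 1000 bp of the window. In replicate 1 that was so for 1 of 60, Hist1h1a.

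By locus, replicate 1 had all of its 7 calls among the 54 Hist1 genes and bound 0 of 10 Hist2 genes, which allows up to 27.8%. In replicate 2, 21 of 54 Hist1 genes (38.9%, 27.0 to 52.2) and 6 of 10 Hist2 genes (60.0%, 31.3 to 83.2) were bound. Over all protein-coding genes the share was 15.7% in replicate 1 and 30.4% in replicate 2. The 6 Hist2 calls rest on 4 peaks, so their interval is too narrow. In Hist2, the H2A gene Hist2h2ab had a peak with a score of 71 over its start site. The H2B gene Hist2h2be was called through that same peak, which ends 929 bp upstream of its start site, and the window of the neighbouring gene Bola1 overlaps it as well. Hist2h2aa1, an H2A gene, had a peak with a score of 45 at 105 bp upstream of its start site. Hist2h4, an H4 gene, had a score of 28, and the H3 gene Hist2h3b and the H2B gene Hist2h2bb shared a peak of 778 bp with a score of 26. The remaining Hist2 members, Hist2h2ac, Hist2h2aa2, Hist2h3c1 and Hist2h3c2, had none. In Hist3, Hist3h2a had a peak with a score of 31 over its start site in replicate 2, which also falls in the window of Trim17, and Hist3h2ba had none.

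Within Hist1, block 4 had 0 of 18 genes bound in replicate 1 and 6 of 18 in replicate 2 (33.3%, 16.3 to 56.3). Block 5 had 2 of 5 in each replicate, with different genes: Hist1h2ah and Hist1h2bk in replicate 1, Hist1h2ag and Hist1h2bj in replicate 2. Block 6 had 5 of 31 in replicate 1 (16.1%, 7.09 to 32.6) and 13 of 31 in replicate 2 (41.9%, 26.4 to 59.2). Beside these block shares stand 15.7% and 30.4% of all protein-coding genes. The 6 other protein-coding genes with a start site inside block 6 had no peak in either replicate. In block 6, the longest run of neighbouring members without a peak in either list comprised 8 genes from Hist1h2ae to Hist1h1e over 51.3 kb by annotated start sites, with 51.5 to 99.3% unique words, and it includes Hist1h2be. In block 4, the longest comprised 6 genes, Hist1h2bq, Hist1h2ao, Hist1h4m, Hist1h4n, Hist1h2ap and Hist1h2br, over 23.6 kb.

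Those 6 genes, with Hist2h3c1 and Hist2h3c2, are the 8 members with under 10% of 37-base words found once in the genome, at 0 to 5.26%. None of the 8 was bound in either replicate. Reads were 37 nt long per the labels (the study's methods give a longer read) and unique alignments were kept. A window made of near-identical copies offers such reads few places, so a missing peak there does not show that SRCAP was absent. Across the genome, 740 protein-coding genes had under 10% unique words, and 0.811% of them were bound in replicate 1 and 1.08% in replicate 2. Over all members the median was 73.3%, beside 98.0% for all protein-coding genes. By type it was 99.3% for H1, 83.8% for H4, 71.7% for H3, 58.9% for H2B and 56.9% for H2A. Without the 8 genes, 7 of 59 members were bound in replicate 1 (11.9%) and 29 of 59 in replicate 2 (49.2%, 36.8 to 61.6). The 21198 protein-coding genes with at least 10% unique words were bound in 16.2% and 31.4% of cases.

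Between 50% and 75% unique words there were 27 members, of which 18.5% were bound in replicate 1 and 55.6% in replicate 2, beside 6.39% and 13.2% of the 782 protein-coding genes in that range. At 75% or more there were 32 members, with 6.25% and 43.8% bound, beside 17.0% and 32.9% of 19792 genes. The members of the lower range were thus called more often than all genes of that range in both lists, which was not tested. The 5 members bound in both lists had between 55.4% and 83.1% unique words.

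The members formed 13 divergent pairs, defined as a minus-strand and a plus-strand member with start sites at most 1000 bp apart. In 12 pairs an H2A and an H2B gene lay 176 to 306 bp apart (median 274.5 bp), and the remaining pair joined the H2B gene Hist1h2bh to the H3 gene Hist1h3f at 660 bp. In replicate 1, 2 pairs had both genes bound and 11 had neither. In replicate 2, 5 pairs had both genes bound, 1 had Hist2h2be bound without Hist2h2ac, and 7 had neither. The pair bound at both genes in both replicates was Hist1h2ac–Hist1h2bc.

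In replicate 2 a peak spanned both start sites at Hist1h2ak–Hist1h2bn (543 bp, score 53), Hist1h2an–Hist1h2bp (572 bp, score 31) and Hist1h2ac–Hist1h2bc (1261 bp, score 78). At Hist1h2ag–Hist1h2bj the peak of 252 bp, with a score of 20, filled the stretch between the start sites and ended 12 bp and 7 bp short of them. At Hist1h2bh–Hist1h3f it lay inside the Hist1h2bh coding sequence, 51 bp downstream of that start site and 711 bp upstream of the start site of Hist1h3f. The sequences printed above are from the first and the last of the spanned pairs and from the uncalled pairs Hist1h2ae–Hist1h2bg and Hist1h2ap–Hist1h2br.

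**Figure D3:**
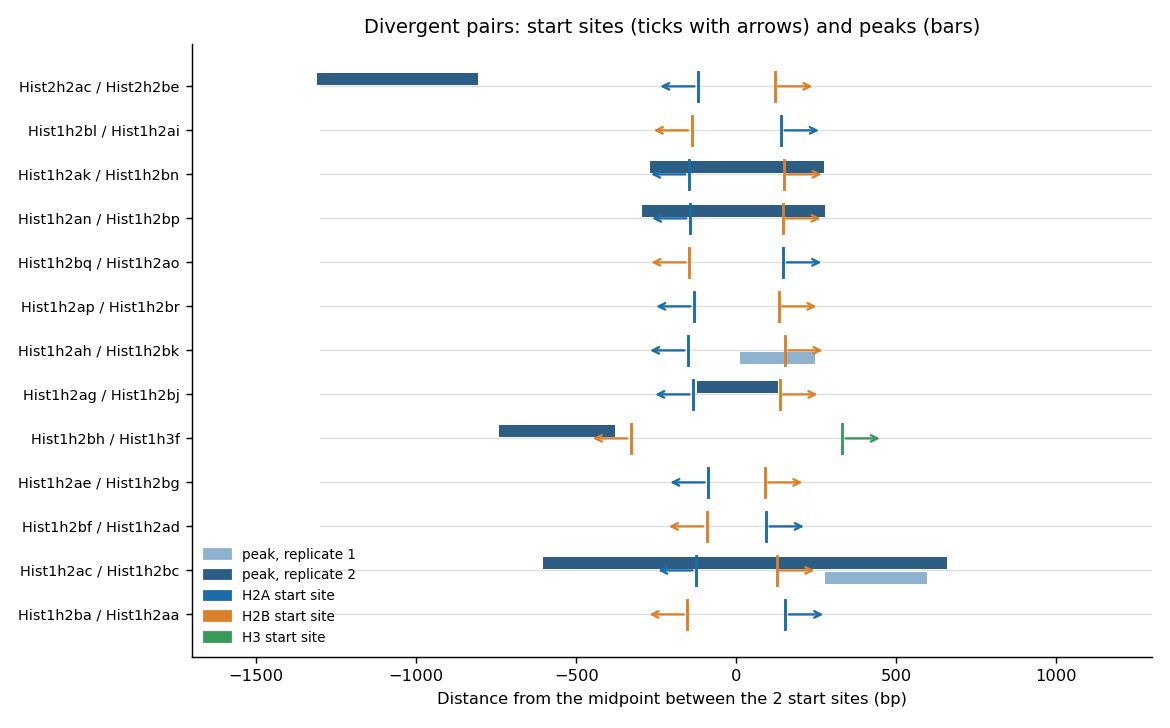
Each row is a divergent pair, drawn to scale in bp from the midpoint between its start sites, with ticks and arrows for the start sites and their direction and bars for the peaks of replicates 1 and 2. Peaks of replicate 2 span both start sites in 3 rows, 7 rows have no peak of replicate 2, and the Hist1h2ac and Hist1h2bc row is the one with a peak of both replicates.

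Members in divergent pairs were bound in 4 of 26 cases in replicate 1 (15.4%, 6.15 to 33.5) and in 11 of 26 in replicate 2 (42.3%, 25.5 to 61.1). The other members were bound in 3 of 41 (7.32%, 2.52 to 19.4) and in 18 of 41 (43.9%, 29.9 to 59.0). Over all protein-coding genes, 1392 genes in 706 divergent pairs were bound in 31.5% and 57.4% of cases and the 20546 other genes in 14.6% and 28.5%. In replicate 2 the paired members thus lay below paired genes at large and the unpaired members above unpaired genes at large. Of the paired members, 4 had no unique words.

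Where a member was bound, its start site was often outside the peak. In replicate 2, 13 of the 29 bound members (44.8%) had a peak that contained a start site, beside 67.8% of the bound protein-coding genes. In replicate 1 it was 1 of 7 (14.3%) beside 62.0%. In replicate 2, 18 of the 29 midpoints lay upstream and 11 downstream, with a median of -133 bp, and at 18 of the 29 members the peak overlapped the member's own coding sequence (a peak shared by neighbours counts for each). The overlap with coding sequence was not counted over all genes. Member start codons lie a median of 32 bp from the start site, so the window itself holds coding sequence. The count is therefore not read as a trait of the members. By type, the median midpoint lay at -137 bp for 7 H2A genes and -146 bp for 9 H2B genes, of which 8 were upstream, but at +283 bp for 7 H3 genes and +241 bp for 5 H4 genes. The H3 genes ranged from -1024 bp at Hist1h3c, called through the peak over the start site of Hist1h2bb, to +839 bp at Hist2h3b.

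**Figure D4:**
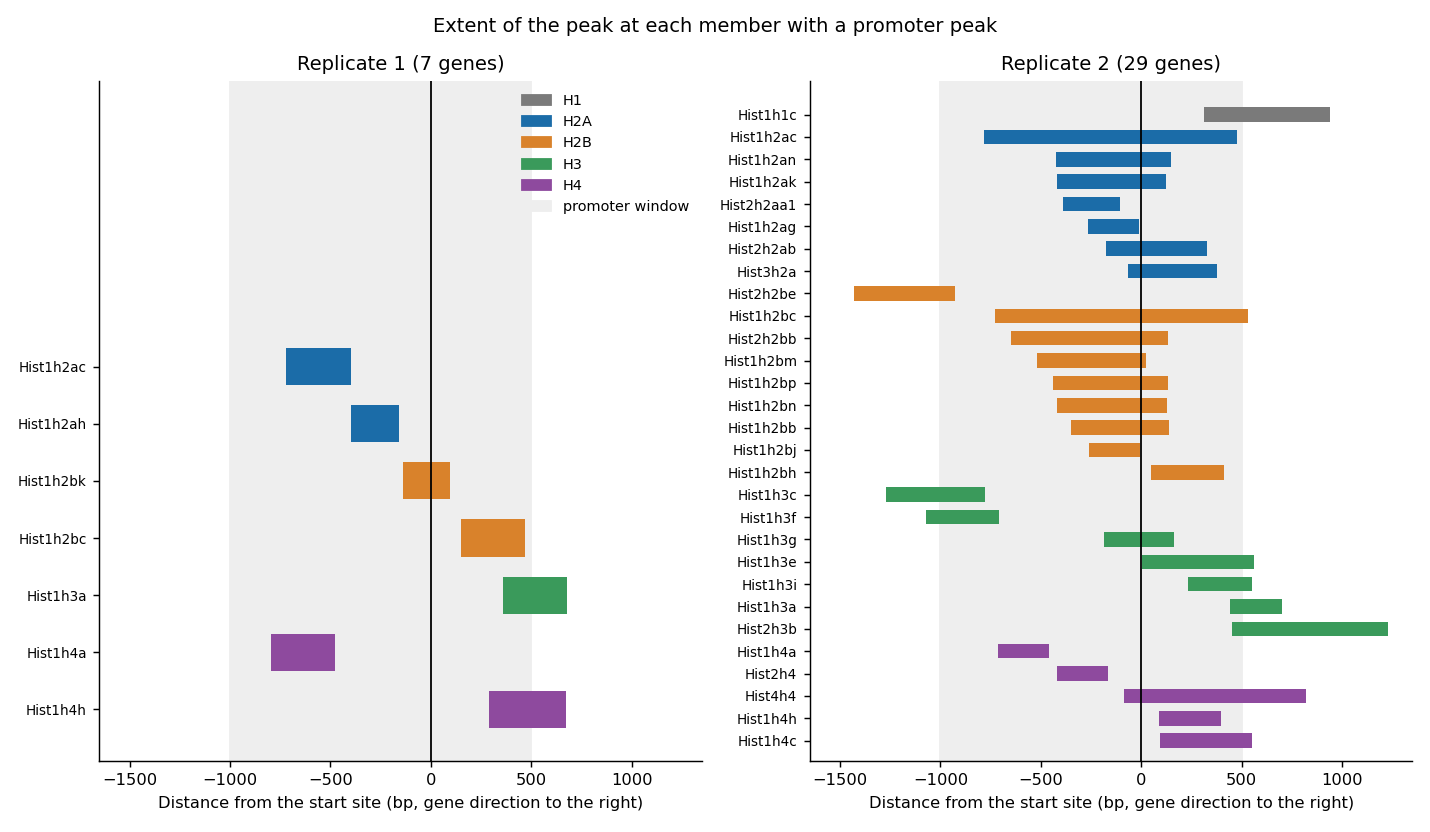
Bars give the extent of the peak at each bound member, in bp from its start site with the gene reading to the right, for replicate 1 and replicate 2; the grey band is the promoter window and colours give the histone type. Most H2A and H2B bars of replicate 2 lie upstream of or across the start site, whereas H3 and H4 bars are spread on either side.

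The members' place relative to all genes depended on the rule. When a peak had to contain a start site, members and all protein-coding genes were bound in 1.49% and 9.73% in replicate 1, 19.4% and 20.6% in replicate 2, and 0% and 6.97% in both, so the higher share in replicate 2 was lost. With a window of 250 bp on both sides it was 32.8% and 28.2% in replicate 2. With the list of replicate 2 cut to its 6158 best scores, it was 22.4% and 19.2%. With a score of at least 50 it was 11.9% and 13.1%. Under each of these rules the members lay below all genes in replicate 1 and in the overlap of the replicates. With the window at the start codon, the members and all genes stood at 10.4% and 10.1% in replicate 1, so that direction turned, at 46.3% and 20.0% in replicate 2 and at 7.46% and 7.67% in both. The members' share in replicate 1 did not change, so the turn came from all genes, which stood at 15.7% with the TSS window. That setting moves the window off the TSS and takes 1 start codon per gene in place of any TSS. It is thus not a like comparison of promoters, and which change lowered the share of all genes was not tested.

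**Figure D5:**
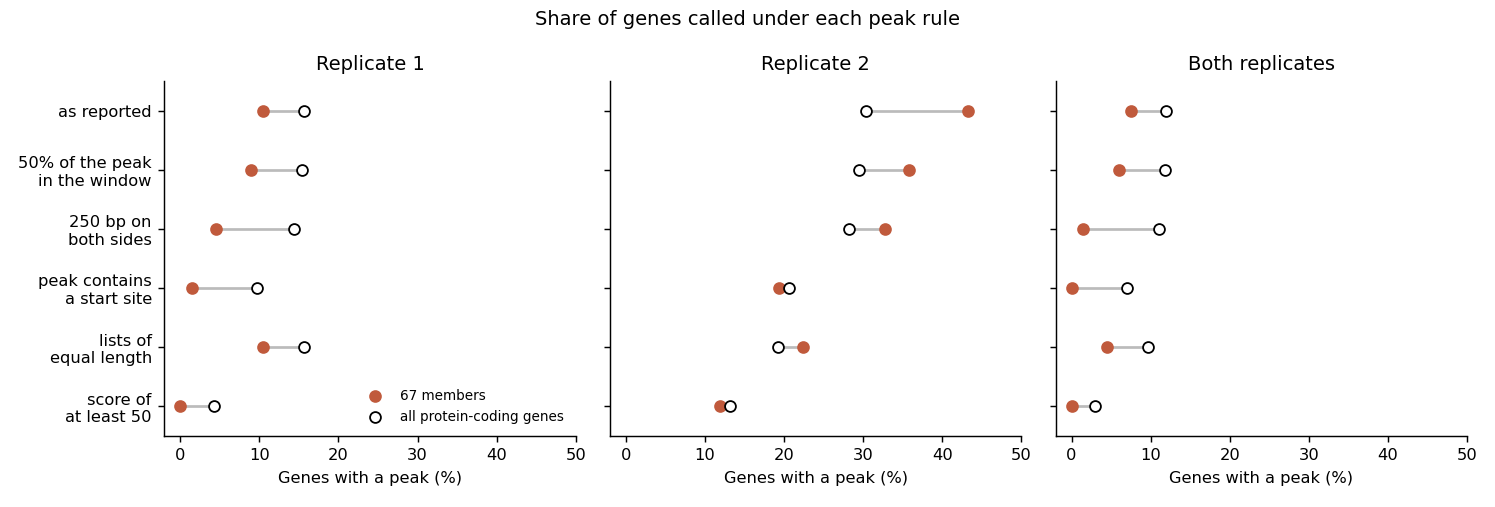
Filled points give the percentage of the 67 members and open points the percentage of all protein-coding genes with a peak, for 6 ways of calling a gene bound, in replicate 1, replicate 2 and both. In replicate 2 the filled point lies to the right under 4 rules and to the left when the peak must contain a start site (19.4% against 20.6%) or have a score of at least 50 (11.9% against 13.1%).

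Promoter motifs were counted as a description of the members' sequence. In the 250 bp before and 50 bp after the start site, CCAAT stood on either strand in 83.6% of members and 37.0% of all protein-coding genes. TATAAA stood in 55.2% and 13.4%, and ATTTGCAT in 22.4% and 1.74%. AAACACA stood in 13.4% and 6.60%, and GTCCGC in 34.3% and 11.1%. With 500 bp upstream in place of 250 bp, CCAAT stood in 88.1% and 54.9%, TATAAA in 62.7% and 25.0%, and ATTTGCAT in 22.4% and 3.03%. AAACACA then stood in 16.4% and 13.5%, so that gap nearly closed, and GTCCGC in 46.3% and 14.9%. CCAAT was found in all 18 H2A and all 18 H2B genes but in 4 of 13 H4 genes, ATTTGCAT in 7 H2A and 8 H2B genes and in no H1, H3 or H4 gene, and AAACACA in 4 of 6 H1 genes. GTCCGC was found in 9 of 13 H4, 8 of 18 H2B and 5 of 18 H2A genes, and with 500 bp upstream in 69.2% of H4 and 72.2% of H2A genes, so H4 no longer stood first. The stretches of neighbouring divergent genes overlap, so a match can count for both, and a base may belong to matches of several motifs.

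Bound and unbound members both held these motifs. In replicate 2, CCAAT was found in 26 of 29 bound and 30 of 38 unbound members (89.7% and 78.9%), and ATTTGCAT in 24.1% and 21.1%. TATAAA was found in 44.8% of bound and 63.2% of unbound members, and GTCCGC in 27.6% and 39.5%. Of the 5 members bound in both replicates, none held an exact GTCCGC, 4 held CCAAT and 4 held TATAAA. The near match gtccga stands before the start site of Hist1h4h. These are matches to short letters and were not tested against the calls.

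Genes for the transcription and processing of histone mRNA were listed separately, 20 in all, with 7 bound in replicate 1 (35.0%, 18.1 to 56.7), 10 in replicate 2 (50.0%, 29.9 to 70.1) and 3 in both (95% interval 5.24 to 36.0%). Beside these stand 15.7%, 30.4% and 12.0% of all protein-coding genes. The list was chosen with earlier results of these data known and its genes are not replicates, so a difference from all genes was not tested. Casp8ap2, the FLASH protein of the histone locus body, had peaks with scores of 60 and 40 whose midpoints lay within 49 bp of a start site. Nfya and Nfyc, subunits of the CCAAT-binding factor NF-Y, had scores of 41 and 25 in replicate 1 and of 67 and 47 in replicate 2. Npat, the coactivator, was bound in replicate 1 alone (score 41), as were Hinfp, the H4 gene activator (39), the cyclin gene Ccne2 (31) and Eri1, an exonuclease that acts on histone mRNA (40). Slbp, which binds the stem-loop, was bound in replicate 2 alone (63), as were Lsm10 (50) and Zfp473 (32) of the U7 snRNP pathway, Pou2f1 (114), Nfyb (26), Cpsf2 (64) and Cpsf3 (46). Lsm11, E2f1, Cdk2, Ccne1, Sympk and Cstf2 had no promoter peak.

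Replication-independent histone genes, 11 in all, were bound in 3 cases in replicate 1 (27.3%, 9.75 to 56.6), in 4 in replicate 2 (36.4%, 15.2 to 64.6) and in 1 in both (9.09%, 1.62 to 37.7). The shares of all protein-coding genes were 15.7%, 30.4% and 12.0%. This list too was chosen with earlier results of these data known, and a difference was not tested. H2afv, which encodes an H2A.Z, had scores of 39 and 58 with midpoints at +27 and -4 bp. H2afz, the other H2A.Z gene, had no promoter peak in either list. H3f3b and H3f3a, the H3.3 genes, were bound in replicate 1 (score 15) and replicate 2 (score 40), H2afy2 in replicate 1 (14), and H2afx and H1fx in replicate 2 (38 and 63). H2afj, H2afy, H1f0 and Cenpa had none.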

How the data were processed

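CUT&Tag of SRCAP-YPet was performed in 2 replicates of SYAT cells in the control condition. Per library, the authors deposited its peaks with positions and a score, which is the peak caller's value. The minimum score was 13 in both lists. The submitters' processing notes name STAR, Picard and MACS2 without versions, and builds mm10 and dm6 (spike-in). Read numbers are not in the lists, so depth is unknown. Under ChIP-seq, the study's reporting form calls peaks against input, and whether these lists were called in that way is not stated. All 67 members and both gene lists were chosen with earlier results of these data known. Genes are GENCODE M21. The named members were those bound in both replicates, those of the Hist2, Hist3 and Hist4 loci and the best by rank of each type with its nearest unbound neighbour. Others were named, after their values were seen, where the text counts them. Uniqueness is the share of 37-base words of a promoter window found once, on either strand, in GRCm38, while a read pair can be unique where a word is not. Intervals are 95% Wilson intervals of counting error. Code was checked on simulated lists. The tools were matplotlib 3.10.9, numba 0.67.0, numpy 2.4.6, scipy 1.17.1, pandas 2.3.3 and Python 3.11.15. Alternatives covered the window, the score, list length, repeat-masked peaks, overlap, transcripts, pair and block distances and leaving out each replicate, with 2 alternatives (unique members, start codons) added after seeing the data.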

Additional observations from a re-analysis of the deposited data

How the results depend on the processing

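Of 104 alternative values for 17 results, 69 moved by less than the interval of the reported value and 35 by more. With a peak that had to contain a start site, the shares of members bound were 1.49% in replicate 1, 19.4% in replicate 2 and 0% in both, and in replicate 2 0% of H1, 8.33% of H3 (27.8% of H2A, 33.3% of H2B), 7.69% of H4, 16.7% of Hist1, 20.0% of Hist2, 23.1% of paired and 17.1% of unpaired members. With a score of at least 50 they were 0%, 11.9% and 0%, and in replicate 2 16.7% of H2A, 16.7% of H2B, 0% of H3, 7.69% of H4, 9.26% of Hist1, 20.0% of Hist2, 19.2% of paired and 7.32% of unpaired members. With lists of equal length, replicate 2 gave 22.4%, with 22.2% of H2B, 25.0% of H3, 20.4% of Hist1, 30.0% of Hist2, 19.2% of paired and 24.4% of unpaired members. With 250 bp on both sides, replicate 1 gave 4.48%, both 1.49%, and replicate 2 0% of H1 and 25.0% of H3 (38.9% of H2A, 44.4% of H2B), and with 50% of the peak in the window 0% of H1. Leaving out a replicate left a share of 10.4% (without replicate 2) to 43.3% (without replicate 1) in place of that in both. GTCCGC was found in 46.3% of members (14.9% of all protein-coding genes) with 500 bp upstream. The stricter rules admit fewer peaks, leaving out a replicate drops the demand for a call in it, and the GTCCGC count covers a longer stretch. No paired analysis was possible because both libraries belong to 1 group.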

Other observations

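Pseudogenes under the same symbols were not members. Of 3, Hist3h2bb-ps on chromosome 11 and Hist1h2aj on chromosome 13 had a peak in the window of their start site in replicate 2 and none in replicate 1, and Hist1h2al, on chromosome 13 far outside the clusters, had none. These are the peaks already counted for the members Hist3h2a and Hist1h2bm, so the pseudogenes add no further peak.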
